A study of Homo sapiens with 6 samples.

Results

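Axon guidance ligands and receptors, with the related secreted protein RELN, were compared in HK-2 cells, a human kidney cell line derived from proximal tubule epithelium, between cells with an empty vector and cells overexpressing hnRNP-F, a protein that binds RNA and takes part in splicing. The members were the protein-coding genes of the count table whose symbols belong to the semaphorins, plexins, neuropilins, Slits, Robos, Eph receptors, ephrins, netrins and UNC5 receptors, plus RELN. The rule took 71 of 31831 listed genes. Of these, UNC50 and UNC5CL were matched by the letters of their names only and are not guidance receptors. They were kept apart from the families but are counted in the totals over all members. No row for DCC, a netrin receptor, was in the table used here.

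Both groups received 30 mM glucose for 72 h, and both carried a lentiviral construct. The control group (HG-NC, 3 libraries) carried the empty vector and the other group (HG-OE, 3 libraries) carried the hnRNP-F construct. No library without a construct or with normal glucose was analysed here, so all values describe cells in high glucose. The labels do not say whether the 3 libraries of a group came from separate cultures, and the p-values therefore measure only the spread between these libraries.

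Guidance molecules were first known as cues that attract or repel growing axons. Semaphorins signal through plexins, often with a neuropilin as co-receptor, Slits signal through Robos, ephrins on 1 cell signal through Eph receptors on the next, and netrins signal through DCC and UNC5 receptors. Many of these genes are also used by epithelia and vessels, where they act on cell contacts and migration. RELN is a large secreted glycoprotein that positions neurons and binds the receptors VLDLR and LRP8, which pass the signal to the adaptor DAB1.

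The libraries held 25507595 to 29444841 counted reads on genes, and 58061 to 66906 of these per library fell on the members. The HNRNPF gene itself lay at 304 to 319 CPM (counts scaled to library size) in HG-NC and at 423 to 452 CPM in HG-OE. The difference had the labelled direction, but at 1.40-fold it was under the 2-fold threshold used below. On the second principal component, which held 16.5% of the variance, HG-OE replicate 3 stood apart from the other HG-OE libraries. It also held more reads from genes of hepatocytes, with a summed level of 319 CPM over 10 such genes other than SERPINA1, against 4.58 and 4.81 CPM in the other HG-OE libraries and 1.44 to 11.7 CPM in HG-NC. With SERPINA1 included, the sums were 265.8 to 276.7 CPM in HG-NC and 461.2, 463.2 and 713.8 CPM in HG-OE replicates 1 to 3. SERPINA1 thus held most of the sum in every library, and it was not highest in HG-OE replicate 3. The part of the hepatocyte reads in the results below was not tested. The epithelial genes KRT8, KRT18, EPCAM and PAX8 were well counted, whereas LRP2 and AQP1, which define differentiated proximal tubule, had at most 17 counts in any library. Sums over 14 genes of epithelium and proximal tubule were 2310 to 2382 CPM in HG-NC. In HG-OE replicates 1 to 3 they were higher, at 3087, 3223 and 3818 CPM, with 1 of 10 tested genes called higher and 0 lower. Markers of other cells were low, with sums over 10 neuronal genes, led by SYT1, of 40.5 to 43.7 CPM in HG-NC against 27.3 to 29.8 CPM in HG-OE, and sums over 7 endothelial genes of 14.8 to 16.3 and 8.57 to 8.75 CPM. Sums over 8 fibroblast genes were 37.0 to 40.5 CPM in HG-NC against 33.3 to 43.7 CPM in HG-OE. Single markers did not all follow these sums. Of 7 tested neuronal genes TUBB3 and SYN1 were called higher in HG-OE and NEFL lower, and of 3 tested endothelial genes VWF was called higher and ESAM lower. The defining neuronal gene RBFOX3 had 0 counts in 5 libraries and 2 in HG-OE replicate 3. In bulk RNA, fewer cells of a type and less RNA per cell cannot be told apart.

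The 250 bases before the RefSeq start sites of 3 genes that rose and of 1 that fell are given here for the reader who wants to see the promoters behind the values below. They come from RefSeq on GRCh38.p14, are written 5′ to 3′ on the strand of the gene, and carry in capitals each GC box, searched as the letters GGGCGG and its reverse complement CCGCCC. Boxes may overlap. All 4 genes lie on the minus strand, and the regions are chr7:103989659-103989908 for RELN, chr5:169301140-169301389 for SLIT3, chr1:208244385-208244634 for PLXNA2 and chr1:16156070-16156319 for EPHA2.
RELN: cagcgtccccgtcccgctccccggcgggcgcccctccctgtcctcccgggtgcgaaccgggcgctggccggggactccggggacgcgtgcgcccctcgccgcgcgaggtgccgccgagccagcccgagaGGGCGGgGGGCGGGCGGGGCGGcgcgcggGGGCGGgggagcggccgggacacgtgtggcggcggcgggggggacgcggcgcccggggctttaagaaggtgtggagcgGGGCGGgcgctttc
SLIT3: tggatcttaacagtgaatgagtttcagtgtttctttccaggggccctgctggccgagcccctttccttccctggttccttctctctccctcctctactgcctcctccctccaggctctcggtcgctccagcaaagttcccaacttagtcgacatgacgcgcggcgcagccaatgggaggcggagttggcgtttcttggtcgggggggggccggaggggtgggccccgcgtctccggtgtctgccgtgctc
PLXNA2: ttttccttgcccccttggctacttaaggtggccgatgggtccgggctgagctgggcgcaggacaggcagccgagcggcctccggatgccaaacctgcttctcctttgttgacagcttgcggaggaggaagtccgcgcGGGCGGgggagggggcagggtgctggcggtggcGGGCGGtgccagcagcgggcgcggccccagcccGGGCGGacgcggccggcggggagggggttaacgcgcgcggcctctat
EPHA2: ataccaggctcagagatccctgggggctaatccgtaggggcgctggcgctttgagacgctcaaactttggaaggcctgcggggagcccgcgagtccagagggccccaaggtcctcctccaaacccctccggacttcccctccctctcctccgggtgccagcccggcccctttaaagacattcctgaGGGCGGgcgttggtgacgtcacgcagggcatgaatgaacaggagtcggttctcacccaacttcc
The RELN window was the richest in G and C of these, at 83.2%, with 43 CpG dinucleotides and 6 GC boxes. The window of PLXNA2 held 3 boxes and 27 CpG, and that of EPHA2 held 1 box and 15 CpG. The letters of a GC box did not occur in the SLIT3 window, which held 16 CpG. Entries were found for 60 of the 71 members. A GC box stood in 72.8% of their 92 promoters and in 42.6% of all 35116 promoters of the table. That larger set covers 27305 genes and was not matched to the members in gene type or level, so the shares are not on the same footing. Among members with an adjusted p under 0.05 (below), the share was 71.0% for those higher in HG-OE and 86.7% for those lower, and it was 75.8% for tested members that did not pass.

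The test was edgeR's quasi-likelihood test, run over the 17142 genes that passed its filter on low counts, with Benjamini-Hochberg adjustment over all of them. Called genes are those that passed an adjusted p of 0.05 with a change of 2-fold or more. Of the 71 members, 57 passed the filter. The other 14 (EPHA3, EPHB3, EPHB6, ROBO2, SLIT1, UNC5C, UNC5D, EFNB3, NTN3, NTN5, NTNG2, PLXNA4, SEMA3G and SEMA5B) had at most 24 counts in any library and were not tested. For single genes, 3 libraries against 3 allow no exact permutation p under 0.1, so that whether the groups overlapped is given as a description.

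Of the 57 tested members, 8 were called (14%, against 5.82% of all genes tested). RELN, SLIT3, PLXNA2, EPHA7 and SEMA4A rose (8.77% of the tested members, against 3.69% of all genes), and EPHA2, EPHA4 and ROBO4 fell (5.26%, against 2.13%). Without regard to the size of the change, 34 members passed an adjusted p of 0.05 (59.6%, against 51.8% of all genes), 21 of them higher in HG-OE (36.8%, against 25.9%) and 13 lower (22.8%, against 25.9%). The libraries of the groups did not overlap for 36 members (63.2%, against 59.0% of all genes). These shares count RELN, UNC50 and UNC5CL, and the members were chosen with earlier results of these data known. With RELN left out, 7 of 56 members were called (12.5%), with 7.14% called higher. With UNC50 and UNC5CL left out, 8 of 55 were called (14.5%). Of those 55, 33 passed an adjusted p of 0.05 (60%, 21 higher and 12 lower) and 34 did not overlap (61.8%). The median log2 fold change was 0.23 over the tested members and 0.01 over all genes. Without HG-OE replicate 3 the members' median was 0.09, with 25 of 57 members below 0, against 21 with all libraries. Among the 42 members that averaged 100 counts or more, 4 were called, 2 in each direction (9.52%), and the median was 0.06 (0.04 to 0.11 with each library left out). Members with few counts thus made up 4 of the 8 calls. The share of calls among all genes with as many counts was not computed, so 9.52% has no matched value to be read against.

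**Figure D1:**
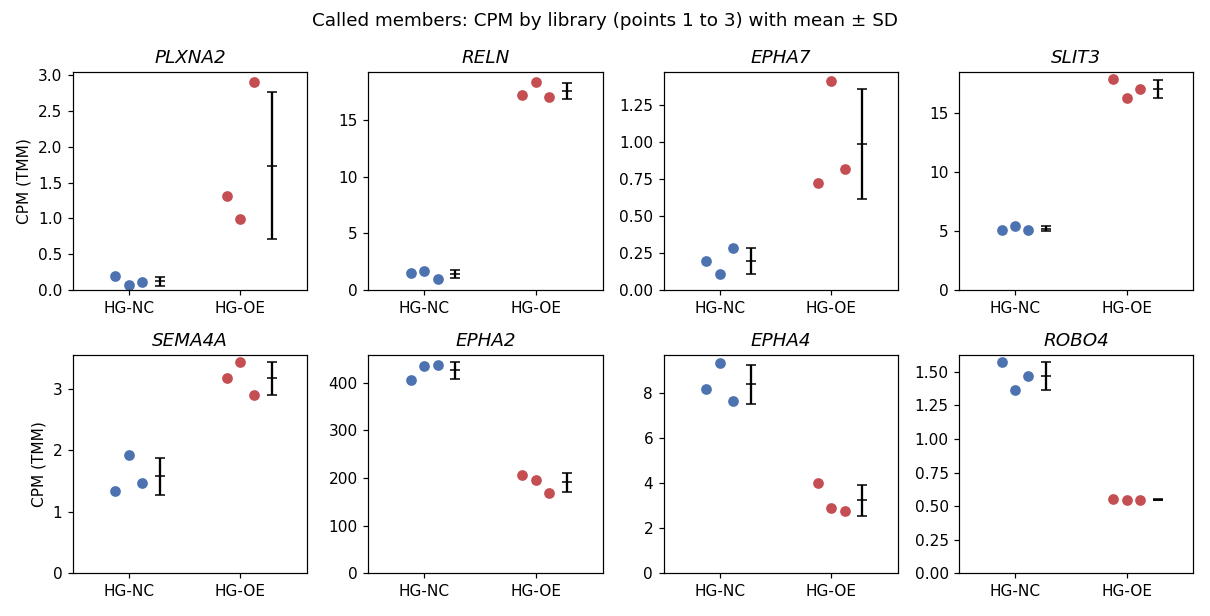
Levels of the 8 called members as CPM, with 1 point per library and the mean ± SD of 3 libraries for HG-NC and HG-OE. RELN lies at 1.00 to 1.66 CPM in HG-NC and at 17.1 to 18.4 CPM in HG-OE, and EPHA2 at 405.2 to 437.5 CPM and at 169.3 to 207.1 CPM.

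From a very low level, RELN (ENSG00000189056.15, chromosome 7, 103471381 to 103989658) rose to a low but well counted level. HG-NC replicates 1 to 3 held 39, 45 and 28 counts, and HG-OE replicates 1 to 3 held 500, 535 and 500. As CPM these were 1.53, 1.66 and 1.00 in HG-NC and 17.2, 18.4 and 17.1 in HG-OE. The groups were far apart, and HG-OE replicate 3 lay with the others of its group. The means were 1.40 ± 0.350 and 17.6 ± 0.712 CPM (SD, n = 3 libraries), which is 12.6-fold or 3.65 on the log2 scale (standard error, SE, 0.146, adjusted p = 6.16e-10 by edgeR). Leaving out each library in turn gave log2 fold changes of 3.46 to 3.80. Per length of transcript, as FPKM, the gene stayed low, with 0.0367 ± 0.00577 in HG-NC and 0.440 ± 0.0173 in HG-OE (SD, n = 3). This placed it 56th of 71 members in HG-NC and 42nd in HG-OE. On the scale of log2(FPKM + 1), where low genes are compressed, the difference was 0.47 and the call was lost.

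The reelin receptors had higher levels per length than RELN in both groups, with 5 FPKM in HG-NC and 5.38 FPKM in HG-OE for VLDLR and 1.28 and 1.35 FPKM for LRP8. VLDLR lay at 94.9, 90.9 and 91.0 CPM in HG-NC and at 99.1, 101.7 and 100.2 CPM in HG-OE, with no overlap but a log2 fold change of only 0.12 (SE 0.0399, adjusted p = 0.0201). With DESeq2, among others, it no longer passed (log2 fold change 0.12). For LRP8 the log2 fold change was 0.09 (SE 0.0615, adjusted p = 0.238), from 28.1 ± 1.72 to 29.9 ± 0.826 CPM (SD, n = 3). DAB1, the intracellular adaptor, had 82, 60 and 66 counts in HG-NC and 61, 64 and 96 in HG-OE (log2 fold change -0.04, SE 0.222, adjusted p = 0.894), and the groups overlapped. Of the 15 genes listed as partners in the reelin pathway, all were tested and 0 were called by edgeR or by DESeq2, with 10 at an unadjusted p under 0.05 in edgeR (66.7%, against 57.0% of all genes). After adjustment 7 passed (46.7%, against 51.8% of all genes). Of these, 2 were higher (VLDLR and the exchange factor RAPGEF1, log2 fold change 0.33) and 5 were lower, among them the regulatory kinase subunit PIK3R1 (-0.52) and PAFAH1B1, the LIS1 protein that binds dynein (-0.35).

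The Slits are secreted ligands that repel cells through Robo receptors. Both Slits that were tested were higher in HG-OE. SLIT3 (ENSG00000184347.15, chromosome 5, 168661740 to 169301139) lay at 5.07, 5.43 and 5.12 CPM in HG-NC and at 17.8, 16.3 and 17.0 CPM in HG-OE. The lowest HG-OE library was far above the highest HG-NC library. The means were 5.21 ± 0.195 and 17.0 ± 0.769 CPM (SD, n = 3), a log2 fold change of 1.71 (SE 0.0924, adjusted p = 8.57e-09 by edgeR), or 3.27-fold. SLIT2, chosen for mention after its values were seen, had a log2 fold change of 0.52 (adjusted p = 0.0112), which no longer passed without HG-NC replicate 2 (0.44, adjusted p = 0.0573 by edgeR). SLIT1 had too few counts to test. Added over the family, the mean level per length was 0.617 FPKM in HG-NC and 1.43 FPKM in HG-OE.

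The Robo receptors moved apart. ROBO1 (ENSG00000169855.20, chromosome 3, 78597239 to 79767998), a broadly used Slit receptor, lay at 10.2, 9.27 and 8.77 CPM in HG-NC and at 14.6, 14.01 and 15.3 CPM in HG-OE. All HG-OE libraries were higher (log2 fold change 0.64, SE 0.0909, adjusted p = 5.22e-05 by edgeR). ROBO3 (ENSG00000154134.15, chromosome 11, 124865432 to 124881471), the member with the highest FPKM, lay at 24.7, 22.9 and 28.3 CPM in HG-NC and at 24.6, 26.1 and 23.2 CPM in HG-OE. Its groups overlapped (log2 fold change -0.04, SE 0.0799, adjusted p = 0.705). ROBO4 (ENSG00000154133.15, chromosome 11, 124883691 to 124898500), which is best known from endothelium, had 40, 37 and 41 counts in HG-NC and 16 in each HG-OE library. With 1.47 ± 0.103 and 0.549 ± 0.00257 CPM (SD, n = 3) it fell by 1.41 on the log2 scale (SE 0.261, adjusted p = 4.51e-04), from counts that were low in every library. Of the endothelial markers, ESAM, the only one with a mean of at least 1 CPM, was lower in HG-OE as well (13.5 against 6.54 CPM), and VWF was higher (0.249 against 0.836 CPM), and their part in this difference was not tested. Of 17 listed partners of Slit and Robo, 0 were called by edgeR or DESeq2, and 12 had an unadjusted p under 0.05 in edgeR (70.6%, against 57.0% of all genes). After adjustment 6 were higher and 5 lower (64.7% in all, against 51.8% of all genes). ENAH, a protein that extends actin filaments, was lower (log2 fold change -0.45) and its relative EVL was higher (0.59).

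**Figure D2:**
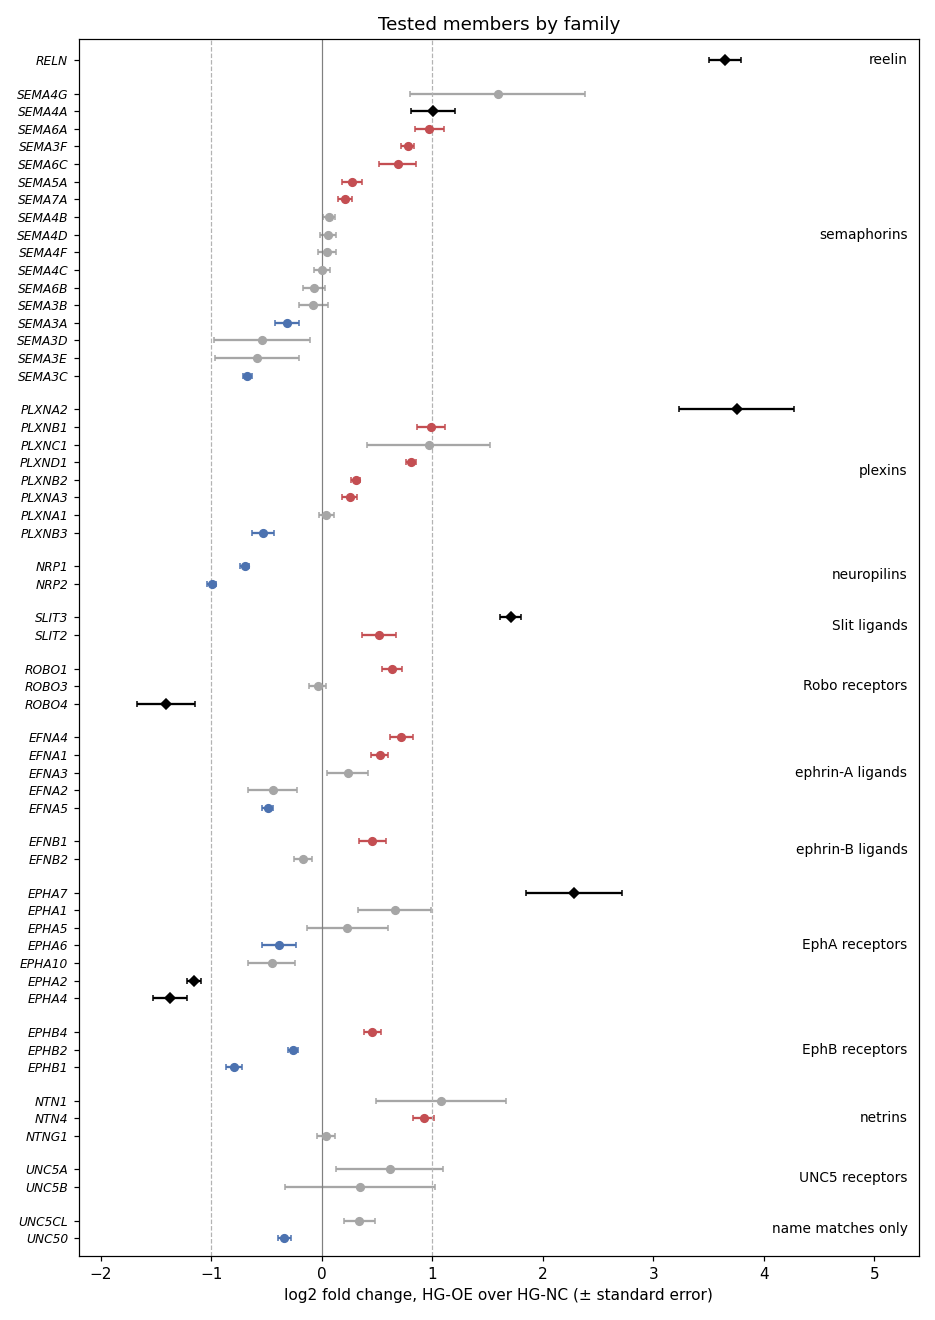
Log2 fold change (HG-OE over HG-NC) ± standard error from edgeR for the 57 tested members, by family, with red and blue for an adjusted p under 0.05 (higher and lower), grey for the rest, black diamonds for the 8 called members and dashed lines at a 2-fold change. Both neuropilins lie below 0, 5 of 8 plexins are higher with an adjusted p under 0.05, and Eph receptors lie on both sides.

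The EphA receptors, kinases that are activated by ephrins on a neighbouring cell, held the largest difference in level. EPHA2 (ENSG00000142627.13, chromosome 1, 16124337 to 16156069), the main Eph receptor of many epithelia, had the highest FPKM of the 71 members in HG-NC. It lay at 405.2, 434.7 and 437.5 CPM in HG-NC and at 207.1, 196.5 and 169.3 CPM in HG-OE. The groups did not overlap, and HG-OE replicate 3 was the lowest library. The means were 425.8 ± 17.9 and 191.0 ± 19.5 CPM (SD, n = 3), a log2 fold change of -1.16 (SE 0.0617, adjusted p = 7.72e-09 by edgeR). Without HG-OE replicate 3 the log2 fold change was -1.08. Per length, the level was 92.0 ± 4.10 FPKM in HG-NC and 40.8 ± 4.26 FPKM in HG-OE (SD, n = 3). The family sum followed it, with 94.6 FPKM in HG-NC and 42.7 FPKM in HG-OE.

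EPHA4 (ENSG00000116106.12, chromosome 2, 221418027 to 221574202), a receptor that binds ephrins of both classes, also fell. Its counts were 208, 253 and 214 in HG-NC and 117, 85 and 81 in HG-OE, with no overlap (8.18, 9.35 and 7.66 CPM against 4.03, 2.92 and 2.77 CPM). The log2 fold change was -1.37 (SE 0.155, adjusted p = 6.30e-06 by edgeR). EPHA7 (ENSG00000135333.15, chromosome 6, 93240020 to 93419687) rose, from 5, 3 and 8 counts in HG-NC to 21, 41 and 24 in HG-OE. The log2 fold change was 2.28, with an SE of 0.436 (adjusted p = 5.48e-04), and its level was at most 1.41 CPM in any library. Of the other tested EphA receptors, EPHA6 had overlapping groups and an adjusted p of 0.0476 (log2 fold change -0.39), which was 0.088 by edgeR without HG-OE replicate 3 and also missed the threshold without HG-NC replicate 2, HG-NC replicate 3 or HG-OE replicate 1 (0.177, 0.172 and 0.069). EPHA5, EPHA10 and EPHA1 did not pass the test.

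The EphB receptors, whose usual ligands are the ephrin-B proteins, moved by less than 2-fold. EPHB1 (ENSG00000154928.19, chromosome 3, 134795260 to 135260467) lay at 24.3, 24.8 and 23.5 CPM in HG-NC and at 14.5, 14.4 and 12.9 CPM in HG-OE (log2 fold change -0.79, SE 0.0742, adjusted p = 1.15e-06 by edgeR). EPHB2 (ENSG00000133216.17, chromosome 1, 22710839 to 22921500), the member with the highest FPKM, lay at 173.2, 162.6 and 172.1 CPM in HG-NC and at 144.0, 146.0 and 132.5 CPM in HG-OE. Neither receptor overlapped between groups, and EPHB2 was lower by only 0.27 on the log2 scale (adjusted p = 2.75e-04). EPHB4, chosen for mention after its values were seen, was higher (log2 fold change 0.45, adjusted p = 2.37e-04). The family had 0 calls by edgeR or DESeq2, with all 3 tested members at an unadjusted p under 0.05, as were 57.0% of all genes.

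The ephrins, the ligands of these receptors, are held at the membrane by a lipid anchor (ephrin-A) or a transmembrane segment (ephrin-B). EFNA1 (ENSG00000169242.12, chromosome 1, 155127876 to 155134899) binds EPHA2 and had the highest FPKM over all libraries in its family. It lay at 20.8, 19.9 and 22.0 CPM in HG-NC and at 27.2, 30.02 and 33.0 CPM in HG-OE (log2 fold change 0.52, SE 0.0758, adjusted p = 6.02e-05 by edgeR). EFNA4 (ENSG00000243364.8, chromosome 1, 155063737 to 155069553) lay at 7.32, 7.32 and 8.84 CPM in HG-NC and at 12.3, 12.9 and 13.6 CPM in HG-OE (log2 fold change 0.72, SE 0.103, adjusted p = 5.55e-05). Both ephrins were higher in every HG-OE library. A gene on the same strand, RP11-540D14.8, overlaps EFNA4 over 5806 bases and held 22.3% as many counts, so that reads could be split between them. EFNA5, chosen for mention after its values were seen, was lower (log2 fold change -0.49, adjusted p = 1.59e-06). EFNA2 (-0.45) and EFNA3 (0.23) did not pass the test.

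Among the ephrin-B ligands, EFNB2 (ENSG00000125266.8, chromosome 13, 106489745 to 106535662) had the highest FPKM. It lay at 18.8, 22.2 and 22.6 CPM in HG-NC and at 19.3, 19.0 and 18.3 CPM in HG-OE, and the groups overlapped (log2 fold change -0.17, SE 0.0798, adjusted p = 0.0926 by edgeR). EFNB1 (ENSG00000090776.6, chromosome X, 68829021 to 68842160) lay at 7.24, 6.84 and 5.65 CPM in HG-NC and at 8.58, 8.55 and 9.90 CPM in HG-OE (log2 fold change 0.46, SE 0.121, adjusted p = 0.00606). Neither ephrin class had a call by edgeR, with 3 of 5 tested ephrin-A and 1 of 2 tested ephrin-B genes at an unadjusted p under 0.05 (against 57.0% of all genes). DESeq2, which tested genes that edgeR's filter removed, called EFNB3. Of 17 tested partners of ephrins and Ephs, 5 were higher and 6 lower after adjustment (64.7% in all, against 51.8% of all genes). GRIP1, a scaffold with PDZ domains that binds ephrin-B tails, was the only call (5.88%, against 5.82% of all genes). It had a mean of 21 counts per library (log2 fold change -1.27, SE 0.404, adjusted p = 0.0171 by edgeR), and DESeq2 did not call it.

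**Figure D3:**
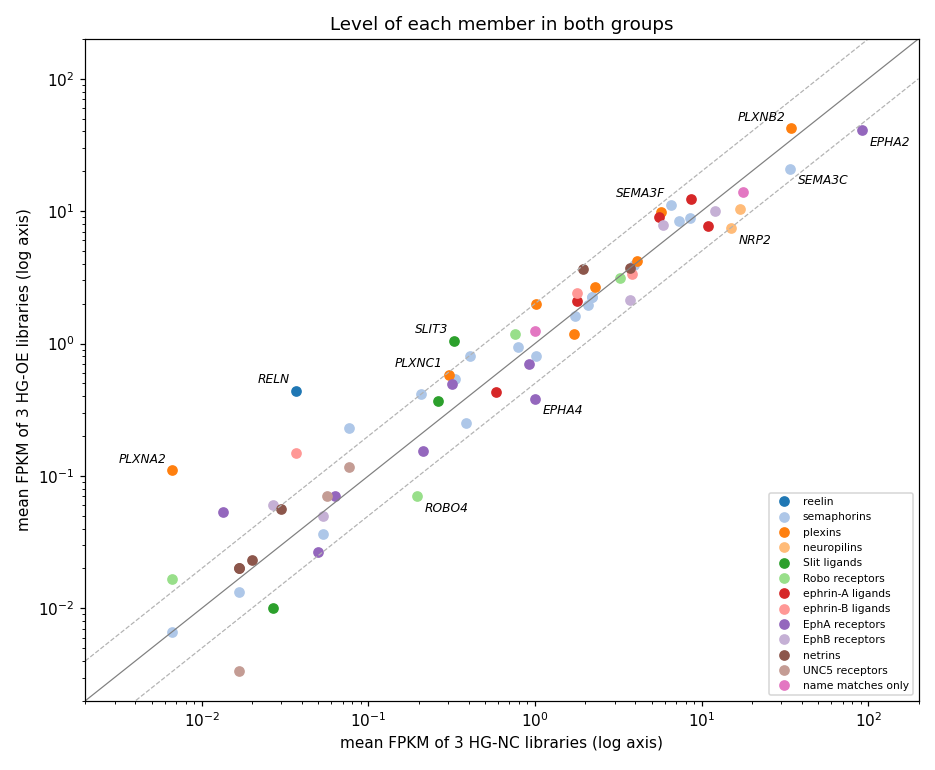
Mean FPKM of 3 HG-OE libraries against mean FPKM of 3 HG-NC libraries on log axes, for 69 members coloured by family (2 members without a mean above 0 in each group are not drawn), with a line of equality and dashed lines at a 2-fold difference. EPHA2 has the highest level in HG-NC at 92.0 FPKM, PLXNB2 the highest in HG-OE at 42.2 FPKM, and RELN lies under 1 FPKM in both groups.

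The neuropilins, co-receptors that bind secreted semaphorins and also VEGF, were both lower in HG-OE. NRP1 (ENSG00000099250.18, chromosome 10, 33177492 to 33336262) lay at 213.3, 223.0 and 222.0 CPM in HG-NC and at 135.4, 139.6 and 130.5 CPM in HG-OE (log2 fold change -0.70, SE 0.0405, adjusted p = 1.54e-08 by edgeR). NRP2 (ENSG00000118257.17, chromosome 2, 205681990 to 205798133) lay at 228.3, 234.2 and 233.5 CPM in HG-NC and at 117.6, 120.3 and 110.7 CPM in HG-OE. Replicates were close and the groups far apart for both genes. The log2 fold change of NRP2 was -0.997 (SE 0.0415, adjusted p = 8.24e-10), which at 1.996-fold stood just under the threshold, as SEMA4A (below) at 2.007-fold stood just over it. DESeq2 gave NRP2 a log2 fold change just past 2-fold and called it. The summed level of both was 32.0 FPKM in HG-NC and 17.8 FPKM in HG-OE.

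The class 3 semaphorins are the secreted ligands that use neuropilins. SEMA3C (ENSG00000075223.14, chromosome 7, 80742538 to 80922359) was by far the most abundant semaphorin, with 33.8 ± 1.28 FPKM in HG-NC and 21.0 ± 0.427 FPKM in HG-OE (SD, n = 3). It lay at 239.4, 221.9 and 231.1 CPM in HG-NC and at 146.7, 144.5 and 142.0 CPM in HG-OE. The groups did not overlap, and the gene fell by 0.68 on the log2 scale (SE 0.0405, adjusted p = 1.99e-08 by edgeR). SEMA3A was also lower, and SEMA3F was higher, with 35.4 ± 1.28 CPM in HG-NC against 60.6 ± 4.17 CPM in HG-OE (log2 fold change 0.78, SE 0.0589, adjusted p = 1.76e-07), both chosen for mention after their values were seen. SEMA3B, SEMA3D and SEMA3E did not pass the test.

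The semaphorins of classes 4 to 7 are bound to the membrane and mostly bind plexins directly. SEMA4A (ENSG00000196189.13, chromosome 1, 156147366 to 156177752) was the only called semaphorin of 17 tested (5.88%, against 5.82% of all genes). Its counts were 34, 52 and 41 in HG-NC and 92, 100 and 85 in HG-OE, with 1.58 ± 0.307 and 3.17 ± 0.266 CPM (SD, n = 3) and no overlap. The log2 fold change of 1.01 (SE 0.198, adjusted p = 7.40e-04 by edgeR) went under 2-fold when HG-NC replicate 1, HG-NC replicate 3 or HG-OE replicate 2 was left out (0.91, 0.96 and 0.94). SEMA6A (ENSG00000092421.17, chromosome 5, 116443555 to 116574823) lay at 5.15, 5.69 and 4.19 CPM in HG-NC and at 9.44, 10.9 and 9.18 CPM in HG-OE (log2 fold change 0.97, SE 0.130, adjusted p = 2.96e-05). Over all classes, 6 of 17 tested semaphorins were higher (35.3%, against 25.9% of all genes) and 2 lower (11.8%, against 25.9%) after adjustment, with a median log2 fold change of 0.06 (0.04 to 0.09 with each library left out). SEMA4B, SEMA4C, SEMA4D and SEMA4F, all well counted, had log2 fold changes of 0.07, 0.00, 0.06 and 0.05 and did not pass the test. SEMA6C (0.69), SEMA5A (0.27) and SEMA7A (0.21) were the other higher members, and SEMA6B (-0.08) did not pass. Of the smaller differences, SEMA5A no longer passed without HG-NC replicate 1, HG-NC replicate 2 or HG-OE replicate 1 (adjusted p = 0.0979, 0.0822 and 0.105 by edgeR), and SEMA7A without HG-NC replicate 2 or HG-OE replicate 2 (adjusted p = 0.0535 and 0.0758). SEMA3A no longer passed without HG-NC replicate 1, 2 or 3 or without HG-OE replicate 2 (adjusted p = 0.0607 to 0.126).

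The plexins are the receptors that read semaphorins. Of 8 tested plexins, 5 were higher (62.5%, against 25.9% of all genes) and 1 was lower after adjustment, with a median log2 fold change of 0.56. Without HG-OE replicate 3, 5 were higher and 2 lower, and the median was 0.28. PLXNB2 (ENSG00000196576.16, chromosome 22, 50274979 to 50307646), the most abundant, lay at 267.8, 286.4 and 286.7 CPM in HG-NC and at 337.4, 355.9 and 347.0 CPM in HG-OE, a small difference with no overlap (log2 fold change 0.31, SE 0.0404, adjusted p = 2.62e-05 by edgeR). PLXNB1 (ENSG00000164050.13, chromosome 3, 48403854 to 48430086) lay at 11.1, 11.9 and 10.1 CPM in HG-NC and at 17.8, 21.1 and 26.7 CPM in HG-OE. HG-OE replicate 3 was its highest library, and without it the log2 fold change went from 0.98 to 0.82. PLXND1, chosen for mention after its values were seen, was higher (60.7 ± 1.81 against 106.2 ± 4.55 CPM, log2 fold change 0.81, adjusted p = 1.42e-08), and PLXNB3 was lower (log2 fold change -0.53). PLXNA3 was higher (0.25, with an adjusted p of 0.0539 by edgeR without HG-NC replicate 1), and PLXNA1 had a log2 fold change of 0.04 and did not pass the test. The family sum was 49.6 FPKM in HG-NC and 62.7 FPKM in HG-OE.

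PLXNA2 (ENSG00000076356.7, chromosome 1, 208022242 to 208244384) had the largest log2 fold change of the tested members, 3.75, but with few counts and a standard error of 0.522 (adjusted p = 3.77e-05 by edgeR). It had 5, 2 and 3 counts in HG-NC and 38, 29 and 85 in HG-OE, so that HG-OE replicate 3 held 55.9% of the counts of its group. Without that library the log2 fold change was 3.17. Its level in HG-OE was 0.110 FPKM. Among 22 tested partners of semaphorins and plexins, 5 were higher and 6 lower after adjustment (50% in all, against 51.8% of all genes). Of these partners, 2 were called (9.09%, against 5.82% of all genes). RND1, a protein that binds plexins, fell from 14.6 ± 1.201 to 5.77 ± 0.573 CPM (SD, n = 3), a log2 fold change of -1.34 (SE 0.108, adjusted p = 3.10e-07). DPYSL4, of the family of collapsin response mediators, rose from 1.06 ± 0.385 to 4.33 ± 0.300 CPM (log2 fold change 2.04, SE 0.227, adjusted p = 5.41e-06).

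All 4 UNC5 receptors and 4 of the 6 netrins had a mean under 0.1 FPKM, and the other 2 netrins, NTNG1 and NTN4, had at least 1 FPKM. NTN4 (ENSG00000074527.13, chromosome 12, 95657807 to 95791189), a netrin that binds laminin in basement membranes, lay at 10.4, 8.98 and 9.05 CPM in HG-NC and at 16.2, 17.9 and 19.8 CPM in HG-OE. Every HG-OE library was higher (log2 fold change 0.92, SE 0.0984, adjusted p = 3.94e-06 by edgeR). NTNG1 (ENSG00000162631.20, chromosome 1, 107140007 to 107484923), a netrin anchored to the membrane, lay at 42.1, 48.4 and 39.5 CPM in HG-NC and at 48.0, 45.4 and 39.9 CPM in HG-OE, and the groups overlapped (log2 fold change 0.04, SE 0.0797, adjusted p = 0.729). UNC5A (ENSG00000113763.12, chromosome 5, 176810519 to 176880898) stayed under 1.04 CPM in every library (log2 fold change 0.61, SE 0.485, adjusted p = 0.306). NTN1, at a mean of 8.83 counts, had a log2 fold change of 1.08 and did not pass either. Among the 3 netrins and 2 UNC5 receptors tested there were 0 calls by edgeR or DESeq2, with 1 and 0 genes at an unadjusted p under 0.05 (against 57.0% of all genes). Of 14 tested netrin partners, 5 were higher and 1 lower after adjustment (42.9% in all, against 51.8% of all genes). The lower one, FLRT1, an adhesion protein that binds UNC5 receptors, was the only call (7.14%, against 5.82% of all genes). It had a mean of 29.2 counts per library (log2 fold change -1.24, SE 0.296, adjusted p = 0.00292 by edgeR).

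By role, the 30 tested ligands held 3 calls, RELN among them and all higher (10%, against 3.69% of all genes). After adjustment 13 ligands were higher (43.3%, against 25.9%) and 3 lower (10%, against 25.9%). The 25 tested receptors held 2 calls higher (8%, against 3.69% of all genes) and 3 lower (12%, against 2.13%). After adjustment 8 receptors were higher (32%, against 25.9%) and 9 lower (36%, against 25.9%). The median log2 fold change was 0.22 for ligands and 0.23 for receptors. Without HG-OE replicate 3 it was 0.18 for ligands and -0.10 for receptors, with 13 of 25 receptors below 0, and without HG-OE replicate 1 or HG-NC replicate 2 the receptors' median was 0.04 or 0.10. The difference between the roles was not tested. Outside the families, UNC50 was lower (log2 fold change -0.34) and UNC5CL did not pass the test (0.34). In the order of levels per length, EPHA2, PLXNB2 and SEMA3C led in HG-NC, and PLXNB2, EPHA2 and SEMA3C led in HG-OE. PLXNB2 and EPHA2 lay within their spread in HG-OE, at 42.2 and 40.8 ± 4.26 FPKM. NRP2 went from the 6th to the 15th place and EPHA4 from the 33rd to the 45th, while SLIT3 went from the 42nd to the 34th. In all, 32 members had a mean of at least 1 FPKM over the 6 libraries, 18 lay between 0.1 and 1 FPKM, and 21 lay under 0.1 FPKM.

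Of the 13 listed cytoskeletal effectors shared by these receptors, 6 were higher and 3 lower after adjustment (69.2% in all, against 51.8% of all genes). There were 0 calls by edgeR or DESeq2, and 10 had an unadjusted p under 0.05 in edgeR (76.9%, against 57.0% of all genes). RHOA, the GTPase through which many repelling signals act, was higher (log2 fold change 0.61), and so was LIMK2, a kinase that phosphorylates cofilin (0.78). CDC42, a GTPase of filopodia, was lower (-0.40). Over all 94 tested partners, 1 was called higher and 3 lower (4.26%, against 5.82% of all genes), and 57.4% passed an adjusted p of 0.05 (against 51.8%).

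**Figure D4:**
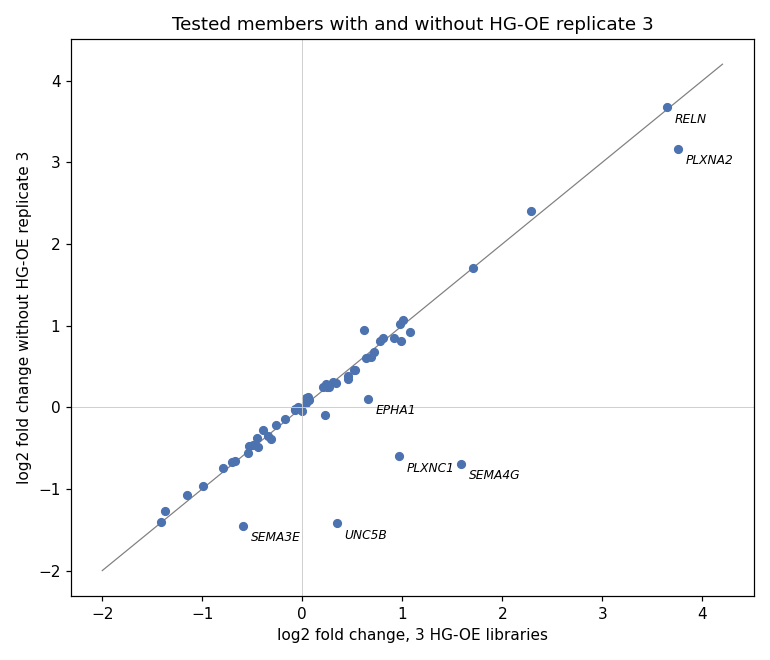
Log2 fold change of each tested member without HG-OE replicate 3 against the value with all 6 libraries. RELN lies on the line of equality (3.65 and 3.67), and SEMA4G, UNC5B and PLXNC1 lie below 0 without that library and above 0 with it.

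For 6 tested members, leaving out HG-OE replicate 3 moved the log2 fold change by more than 0.5. SEMA4G had 13, 10 and 13 counts in HG-NC and 6, 10 and 103 in HG-OE, and its log2 fold change went from 1.59 to -0.69. PLXNC1, a plexin that binds SEMA7A, had 91, 86 and 96 counts in HG-NC and 67, 63 and 452 in HG-OE, and went from 0.97 to -0.60 (adjusted p = 0.00559 without the library, by edgeR). UNC5B had 10, 10 and 14 counts in HG-NC and 3, 6 and 38 in HG-OE (0.34 with and -1.42 without the library). In these 3 genes the direction hung on 1 library, and none was called with all libraries. SEMA3E had 75, 110 and 108 counts in HG-NC and 45, 32 and 134 in HG-OE, and its log2 fold change went from -0.59 to -1.45 (adjusted p = 1.27e-07 without the library). EPHA1 had 51, 33 and 49 counts in HG-NC and 55, 48 and 126 in HG-OE (0.66 with and 0.10 without the library). PLXNA2, described above, was the other gene. Without HG-OE replicate 3, 11 of 57 tested members were called, namely the 8 given above plus SEMA3E, SEMA6A and UNC5B. Of all 17366 genes tested in that setting, 626 were called higher and 457 lower.

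**Figure D5:**
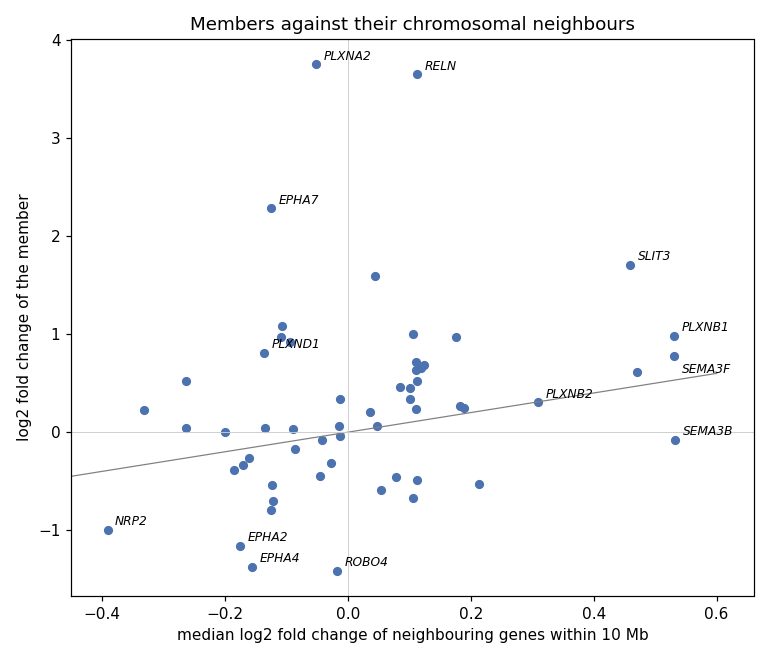
Log2 fold change of each tested member against the median of its neighbours, the well-counted genes up to 10 Mb away, with a line of equality. RELN and SLIT3 lie far above the line, EPHA2 lies far below it, and PLXNB2 lies on it.

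The members were also set against the genes around them, since the median log2 fold change of well-counted genes within 10 Mb differed along the genome. Around RELN it was 0.11 over 137 genes, and removing it left a log2 fold change of 3.54. Around SLIT3 it was 0.46 over 77 genes, which left 1.25. Around NRP2 it was -0.39 over 79 genes, which left -0.61. For PLXNB2 the 104 neighbours had a median of 0.31, and nothing was left of the difference (-0.002, adjusted p = 0.971 by edgeR). EPHB2 (-0.11, adjusted p = 0.0771 by edgeR), PLXNA3 (0.06, adjusted p = 0.507), SEMA5A (0.09, adjusted p = 0.472) and EPHA6 (-0.21, adjusted p = 0.299) no longer passed the test either. Others began to pass, namely SEMA3B (-0.61, adjusted p = 0.00207 by edgeR), SEMA4F (0.31, adjusted p = 0.00657), SEMA4C (0.20, adjusted p = 0.0309) and PLXNA1 (0.18, adjusted p = 0.0476). The neighbour median was taken as a fixed value, so the p-values of this setting leave out the spread among neighbours. They measure a departure from the neighbours, not a difference between the groups. Before removal, SEMA3B had overlapping groups and a log2 fold change of -0.08 (adjusted p = 0.652 by edgeR). PLXNB1 and SEMA3F lie on chromosome 3 among genes with a median of 0.53, which left 0.45 and 0.25. EPHA2 kept -0.98 (adjusted p = 4.86e-08), under 2-fold, and SEMA4A kept 0.90. NTN4, whose neighbours had a median of -0.09, went past 2-fold at 1.01. In this setting 7 of 57 tested members were called, and 21 were higher and 12 lower with an adjusted p under 0.05, against 21 and 13 before. Of all 17096 genes tested in this setting, 578 were called higher and 315 lower.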

How the data were processed

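RNA-seq of poly(A) RNA from HK-2 cells in high glucose was used, with 3 HG-NC and 3 HG-OE libraries, grouped by their labels. The authors trimmed reads with FASTX-Toolkit, aligned them to GRCh38 with HISAT2, and deposited whole-number counts of uniquely mapped reads per gene. The counting tool and its strand setting are not given in the sources used here, and whether the batch correction that the study names (ComBat_seq) entered the counts is not stated. A second deposited table holds FPKM values that the authors computed, given to 2 decimals, so that low levels are coarse. Library sizes (25507595 to 29444841) limit precision most for members under 100 counts.

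Counts were fitted in R 4.3.3 with edgeR 4.0.16 (TMM, default low-count filter, quasi-likelihood test, no covariate). CPM values use TMM. Levels of different genes were compared as FPKM only. Positions are from GENCODE release 44 and promoters from RefSeq. Alternatives used DESeq2 1.42.0, limma 3.58.1 on log2(FPKM + 1) or log2(FPKM + 0.1), other filters, each library left out, and removal of the neighbour median. The steps were tested on simulated data.

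The members and the gene lists were chosen with earlier results of these data known. Named with the value in every library are RELN, called members, and in each family the member with the highest mean FPKM. Each family's largest absolute log2 fold change was named too, among members with an adjusted p under 0.05. That choice was limited to genes averaging 100 counts or more, so EPHA7, PLXNA2, ROBO4 and SEMA4A enter as called members only. Partners named are the reelin receptors and DAB1 and those called. Any others were picked with their values in view. Mannitol libraries, splicing events and CLIP data were not analysed here.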

Additional observations from a re-analysis of the deposited data

How the results depend on the processing

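The 8 called members stayed the same 8 genes with the size factors of DESeq2 and with the replicate number as a block (8 calls). The numbers did not pair the libraries, since the deviations of same-numbered libraries correlated at -0.03, 0.03 and -0.00. The count was 9 without the low-count filter, 6 with at least 10 counts in every library and 10 with DESeq2. With limma it was 1 on log2(FPKM + 1), 5 on log2(FPKM + 0.1) and 1 on log2(FPKM + 1) without a filter, and without the fold threshold it was 34. Calls higher in HG-OE, 5 in the report, numbered 3 with at least 10 counts, 0, 2 and 0 in the limma settings and 21 without the fold threshold. Calls lower, 3 in the report, numbered 1 with limma on log2(FPKM + 1) with or without the filter and 13 without the fold threshold. Leaving out 1 library gave 9 to 13 calls, with 5 to 9 higher and 3 to 5 lower. The 13 came without HG-OE replicate 1, when EFNB3, NRP2, PLXNB1, PLXNC1 and SEMA4G were added, the 8 higher calls without HG-NC replicate 2, and the 5 lower calls without HG-OE replicate 3. Partners called numbered 0, 2 and 0 in the limma settings against 4, and 4 to 5 with a library left out. Over all genes, the 632 higher calls became 1103 without the filter, 370 with at least 10 counts and 76 and 70 with limma on log2(FPKM + 1) with and without its filter, and the 365 lower calls became 68 in both of these. Leaving out 1 library gave 626 to 713 higher and 359 to 457 lower. Among the 32 named genes, the log2 fold changes of NTNG1, PLXNB2, ROBO3, UNC5A and DAB1 turned sign. NTNG1 had -0.024 without HG-NC replicate 3 and without HG-OE replicate 1 (-0.024 to 0.124 over the libraries left out). PLXNB2 had -0.002 with the neighbour median removed. ROBO3 had 0.054 without HG-NC replicate 3 and 0.003 without HG-OE replicate 3 (-0.106 to 0.054). UNC5A had -0.12 without HG-OE replicate 1 (-0.12 to 0.947). DAB1 had 0.145, 0.075 and 0.051 without HG-NC replicate 1, HG-OE replicate 1 and HG-OE replicate 2 (-0.268 to 0.145). Of 470 values for 32 named genes, 417 kept their direction, lost no call and stayed on the same side of an adjusted p of 0.05. These 417 include values that newly went past 2-fold, such as NRP2 with DESeq2 and NTN4 with the neighbour median removed. The cause of these changes was not tested, except that a filter on counts leaves EPHA7 and PLXNA2 untested and that a pseudocount of 1 FPKM compresses low genes.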

Other observations

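Among called protein-coding genes, those whose log2 CPM followed RELN most closely over the 6 libraries were C1orf21, DDX25, ENDOD1, SLC26A2 and CELSR1, with Pearson's r of 0.998 for each. With 3 libraries in each of 2 groups, such a value mostly reflects the distance between the groups, and no test was made. CELSR1 is a cadherin of planar cell polarity and SLC26A2 is a sulfate transporter.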
